A study of Rattus norvegicus with 287 samples.

Results

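Histone genes and RNAs without a poly(A) tail were followed across the RNA-seq libraries of 8 rat tissues. The set was taken by gene symbol from the table of 32623 genes: every symbol that starts with Hist and a digit, together with Rn7sl1, Rpph1 and Rmrp. The rule found 33 genes. Of these, 31 were histone genes, with 6 linker histone H1, 12 H2A, 9 H2B, 2 H3 and 2 H4 genes, and the others were Rn7sl1 and Rpph1. No entry carried the symbol Rmrp, and the symbol Hist1h2an named 2 entries, ENSRNOG00000057700 and ENSRNOG00000058437. The members lay in histone cluster 1 (22 genes), cluster 2 (7) and cluster 3 (2). Hist2h2aa2 and Hist2h2aa3, which encode H2A, had equal counts in 279 libraries, all but 8. They are described below as 1 pair whose counts may have been split between near-identical copies. In counts of members tested or called, however, the copies enter as 2 genes.

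The study delivered peripheral focused ultrasound (pFUS), at 1.1 MHz for 3 minutes a day, over the porta hepatis, where vessels and nerves enter the liver. Sham controls had the same handling without ultrasound energy, and all rats were anaesthetised with isoflurane. Obese ZDF males gave 150 libraries over all durations, and Lean Zucker males gave 54. The lean males and part of the obese males were treated or sham treated for 7 weeks. DIO-stz rats (45 male and 23 female libraries), named in the labels for diet-induced obesity and streptozotocin, were also sampled at 7 weeks, and female DIO Diet Resistant rats (15 libraries) only after pFUS. The DIO-stz controls held 2 females and 2 males in each tissue, and the DIO-stz pFUS groups at most 1 female. Further obese ZDF males gave liver, muscle and adipose after 3 days (control, AM only x1, AM only x10) and after 4 weeks (AM only x10, AM & PM x1, AM & PM x10), with 4 libraries a group. The x1 and x10 labels are used as given. No ages are given in the labels used here. There were 55 liver, 52 muscle, 48 adipose, 31 blood, 31 brain (hypothalamus), 29 intestine, 21 kidney and 20 pancreas libraries in 70 groups, most of them of 4 or 5 libraries. Tissue went into RNAlater. Per the labels, 6 tissues were prepared with the TruSeq Stranded mRNA kit, which selects poly(A), whereas adipose and pancreas had the TruSeq kit for total RNA.

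Most mRNAs carry a poly(A) tail, but the mRNAs of the histone genes that serve DNA replication end in a conserved stem-loop, which SLBP binds and a dedicated machinery cuts. These mRNAs are made in bulk during S phase, so tissues with many dividing cells hold more of them, and a selection for poly(A) depletes them. Some of these genes also give polyadenylated transcripts in differentiated cells. Rn7sl1 is the 7SL RNA, the scaffold of the signal recognition particle that takes nascent secretory proteins to the endoplasmic reticulum, and the symbol Rpph1 is that of the RNA of RNase P, which trims the 5' ends of tRNAs. RNA polymerase III makes both without a tail. RefSeq, however, types its rat Rpph1 entry as the RNA of the related RNase MRP and lists Rmrp as a synonym, so every Rpph1 value below may be of either RNA.

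The 4 promoters below are shown because their genes parted in the comparison of library kinds: Hist1h1c and Hist1h4b had similar means in 4 contrasts of library kind, and Hist1h1e and Hist1h2ao were not. Each window runs from base -150 to base -1 before the RefSeq start, 5' to 3' on the strand of the gene, in build GRCr8. Hist1h1c (RefSeq H1f2) lies at chr17:41820454-41820603 on the minus strand, Hist1h1e (H1f4) at chr17:41914275-41914424 on the plus strand, Hist1h4b at chr17:47176096-47176245 on the plus strand and Hist1h2ao at chr17:47400879-47401028 on the minus strand. Capitals mark 4 motifs searched on both strands. They are the H1 element, spelled AAACACA, the general promoter box spelled CCAAT, the core box spelled TATAA, and GGTCC from the upstream element known in H4 genes.
Hist1h1c: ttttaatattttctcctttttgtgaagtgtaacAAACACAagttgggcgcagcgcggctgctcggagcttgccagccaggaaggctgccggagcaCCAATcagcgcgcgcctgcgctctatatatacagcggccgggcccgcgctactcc
Hist1h1e: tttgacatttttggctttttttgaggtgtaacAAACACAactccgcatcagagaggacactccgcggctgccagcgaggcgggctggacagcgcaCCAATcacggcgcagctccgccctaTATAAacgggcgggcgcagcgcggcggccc
Hist1h4b: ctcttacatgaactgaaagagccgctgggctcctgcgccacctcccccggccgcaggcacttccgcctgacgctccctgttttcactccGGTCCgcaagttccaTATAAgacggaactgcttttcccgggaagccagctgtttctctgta
Hist1h2ao: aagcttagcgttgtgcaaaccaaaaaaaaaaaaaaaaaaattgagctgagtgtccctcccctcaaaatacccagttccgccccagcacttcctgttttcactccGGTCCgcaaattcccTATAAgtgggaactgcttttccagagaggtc
Both H1 windows held AAACACA inside a shared run of 15 bases (gtgtaacaaacacaa). The windows of Hist1h4b and Hist1h2ao shared a run of 23 bases (cctgttttcactccggtccgcaa) that held GGTCC. The Hist1h2ao window was matched by symbol alone, and its pairing with the H2A gene of the count table was not checked further. Of 33469 RefSeq promoters, 3.29% held the H1 element in the same window, as did 6 of the 24 histone members with a usable window. Among the 6 H1 genes, 5 held it, all but Hist1h1a. These 5 include Hist1h1d, which RefSeq lists as a synonym of an entry with an H4 symbol (H4f3), so that its window is uncertain. The CCAAT box was in 23.5% of all promoters and in 22 of the 24, which left out only Hist1h4b and Hist1h2ao. The TATAA box was in 15.2% and in 20 of the 24, and the GGTCC letters were in 26.9% and in 5 of the 24. A match of letters describes the sequence and is not a bound site.

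Total counts ran from 2380545 to 43088790 a library (median 12849617), and levels are given as CPM, a gene's counts scaled to the total of its library, so that each gene is compared with itself. Rn7sl1 took 54086409 counts in all and Rpph1 3005216, Hist1h1c led the histone genes with 132457, and Hist1h4b followed with 103599. Hist1h2ba, Hist1h2aa and Hist3h2bb were the scarcest members, with 216, 254 and 271 counts over all libraries. Hist1h1t, the H1 gene known from testis, reached at most 1.21 CPM, in adipose. Among 48 adipose libraries, 5 had Adipoq, the fat cell hormone, under 100 CPM, and all 5 had the muscle gene Ckm over 10000 CPM. Obese pFUS library 7 of intestine held 4 pancreas markers at 10294 CPM in sum, above its group's intestine markers (3430 to 4656 CPM for the 2 measured of 3). Single markers such as Slc34a1 of kidney also reached 2348 CPM outside their tissue, where kidney itself had at least 1237 CPM. Alb stood at 63305 to 211173 CPM in liver and at most 1538 CPM elsewhere. Where the labels do not say that replicates came from separate animals, p-values measure only the spread between these samples. In bulk tissue, fewer cells of a type and less RNA per cell cannot be told apart.

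Rn7sl1 and Rpph1 divided the libraries into kinds. Rn7sl1 stood at 3460 to 395247 CPM in 116 libraries, or 0.346% to 39.5% of all counts, and at 0 to 80.2 CPM in the other 171, with no library between. Rpph1 followed, at 383 to 12178 CPM in the 116 and at 0.0898 to 18.2 CPM in the 171. The line of 1000 CPM of Rn7sl1 that is used here was drawn after the values were seen. All 20 pancreas libraries were Rn7sl1-rich (55597 to 395247 CPM), as were 40 of 48 adipose libraries (10823 to 75902 CPM). The 8 adipose libraries of the DIO rats were not, at 1.43 to 80.2 CPM.

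The kind did not follow the labelled kit in every tissue. Of 219 libraries from tissues labelled with the mRNA kit, 163 had little Rn7sl1 and 56 were rich in it. These 56 were the 24 liver and 24 muscle libraries of the 3-day and 4-week groups and the 8 Lean Zucker muscle libraries of the 7-week groups. Rn7sl1-rich liver stood at 14751 to 35170 CPM with a median of 24838 CPM, against a median of 3.73 CPM in the other livers. In muscle the medians were 10949 CPM and 9.39 CPM. Medians were 8.33 CPM in blood, 13.1 CPM in brain, 2.07 CPM in intestine and 8.24 CPM in kidney, where no library was rich.

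**Figure D1:**
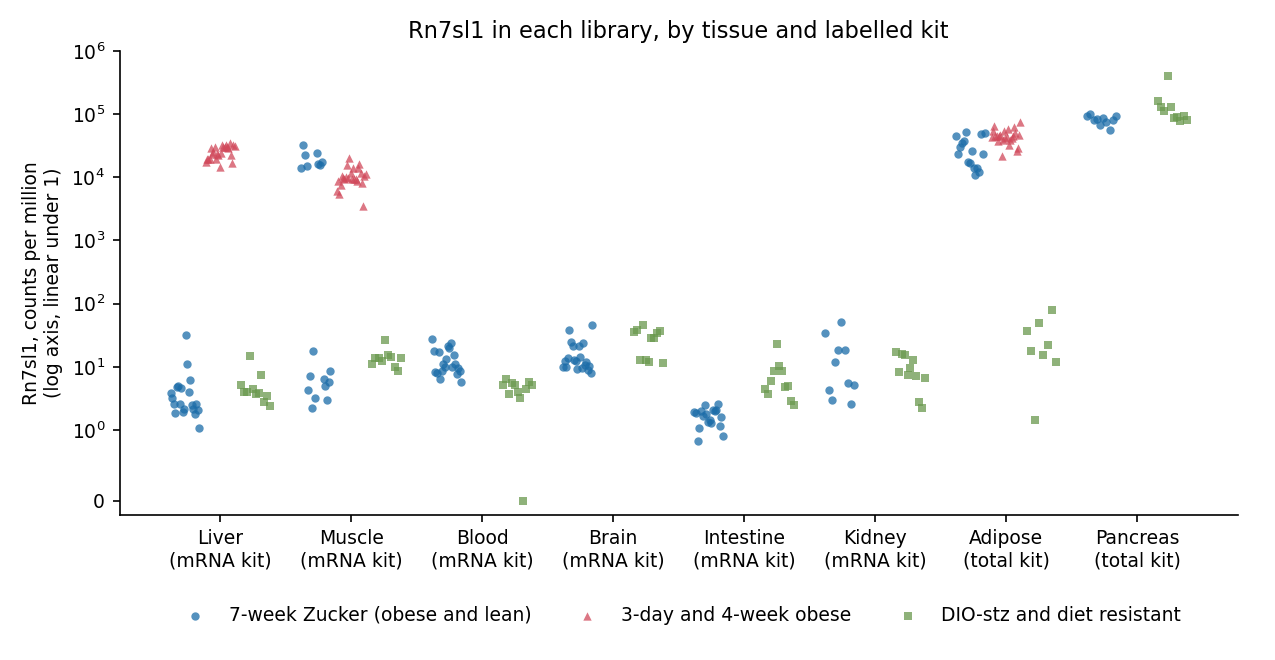
Rn7sl1 in each library in CPM (log axis, linear under 1), by tissue with the labelled kit, coloured by cohort. Libraries sit either at 80.2 CPM and below or at 3460 CPM and above, and liver, muscle and adipose hold both kinds.

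The histone genes did not move as a block between the kinds. In liver, Hist1h4b and Hist1h1c were read at like levels in both, while Hist1h1e, Hist2h4 and Hist1h2ao were nearly absent from libraries with little Rn7sl1. The contrasts here set groups side by side with no test, and the library kind cannot be told apart from the time, cohort or preparation that came with it. Hist1h4b, an H4 gene, stood at 57.3, 56.0, 56.9 and 47.3 CPM in the 4 obese 3-day controls and at 58.4, 35.5, 46.5, 48.9 and 46.1 CPM in the 5 obese 7-week controls. Hist1h1c, which encodes the linker histone H1.2, stood at 19.6, 32.2, 31.1 and 34.5 CPM against 41.5, 28.2, 10.4, 28.9 and 41.5 CPM. For both genes the groups overlapped.

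Hist1h1e, which encodes the linker histone H1.4, stood at 12.9, 21.0, 28.2 and 27.9 CPM in the 3-day livers. In the 7-week livers it stood at 0.0460, 0.111, 0.0309, 0.143 and 0.232 CPM, so every 3-day library was higher and the means (22.5 and 0.113 CPM) differed 200-fold. Hist2h4, the other H4 gene of the set, had means of 7.16 and 0.0104 CPM. It had 328 and 2 counts, a ratio of pooled levels of 617 with an exact 95% counting interval of 170 to 5118, which covers counting error only. Hist1h2ao differed 149-fold, Hist1h2ah 25.6-fold, Hist1h2bo 10.8-fold and Hist1h1d 8.43-fold. The ratios for Rn7sl1 and Rpph1 were 5702 and 3309. Hist1h1b was higher in the mean (1.40 against 0.101 CPM) with overlapping groups. A rule set after the values were seen asked for at least 4-fold with no overlap. It took genes with a mean of 1 CPM or more in either group. By it 7 of 11 histone genes were higher and 0 lower, while 717 of 11913 genes in all were higher, 6.02%. A gene that reaches 1 CPM only in the Rn7sl1-rich group cannot come out lower. These counts, here and in the contrasts below, are therefore a description and not a test.

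Muscle gave the same contrast from 2 sides. Hist1h1c had a mean of 45.6 CPM in the obese 3-day controls (n = 4), 41.3 CPM in the lean 7-week controls (n = 4) and 43.3 CPM in the obese 7-week controls (n = 5), and the groups overlapped. Hist1h1e stood at 18.4, 31.0, 18.8 and 17.2 CPM in the lean controls, and at 0, 0, 0.129, 0 and 0.313 CPM in the obese controls of the same duration. The means differed 242-fold, and 238-fold when the 3-day controls (mean 21.1 CPM) took the place of the lean ones. Hist2h4 differed 144-fold and 109-fold, Hist1h2ao 79.2-fold and 40.6-fold, Hist1h1b 36.9-fold and 25.8-fold. The H2A pair was closer, at 2.15-fold and 1.96-fold. By the same rule, with the same limit, 6 of 10 histone genes were higher in lean muscle, against 5.97% of 12018 genes. In 3-day muscle 6 of 10 were higher, against 8.18% of 12261.

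Adipose showed it most widely. The 7-week controls of obese ZDF rats were Rn7sl1-rich (30642 CPM in the mean) and those of DIO-stz rats were not (26.5 CPM), although both are labelled with the total RNA kit. The contrast also differs in strain, diet and sex. Hist1h1e stood at 28.2 to 41.8 CPM against 0.239 to 0.434 CPM (n = 4 each), a ratio of 95.3. Hist2h4 had a mean of 25.3 CPM against no count in the 4 DIO-stz libraries, at least 514-fold higher with a floor of 3 counts over the group. Hist1h1a, an H1 gene, was at least 91.7-fold higher and Hist1h3a, an H3 gene, at least 53.5-fold. So were the H2A genes Hist2h2ac (at least 47.4-fold) and Hist1h2ak (37.6-fold) and the H2B genes Hist1h2bl (41.1-fold) and Hist1h2bh (22.7-fold), with no DIO-stz count either. Hist1h1b differed 122-fold, Hist1h2ail1 25.8-fold and Hist1h2bo 21.0-fold. Hist2h3c2, the other H3 gene, had 86 and 2 counts, a ratio of pooled levels of 83.8 (exact 95% counting interval 22.5 to 703). In contrast, Hist1h1c had means of 76.0 and 59.0 CPM, Hist1h4b of 16.3 and 23.1 CPM, and Hist2h2be of 1.19 and 1.21 CPM. By the rule, with the same limit, 18 of 23 histone genes were higher, against 3.11% of 13940 genes.

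**Figure D2:**
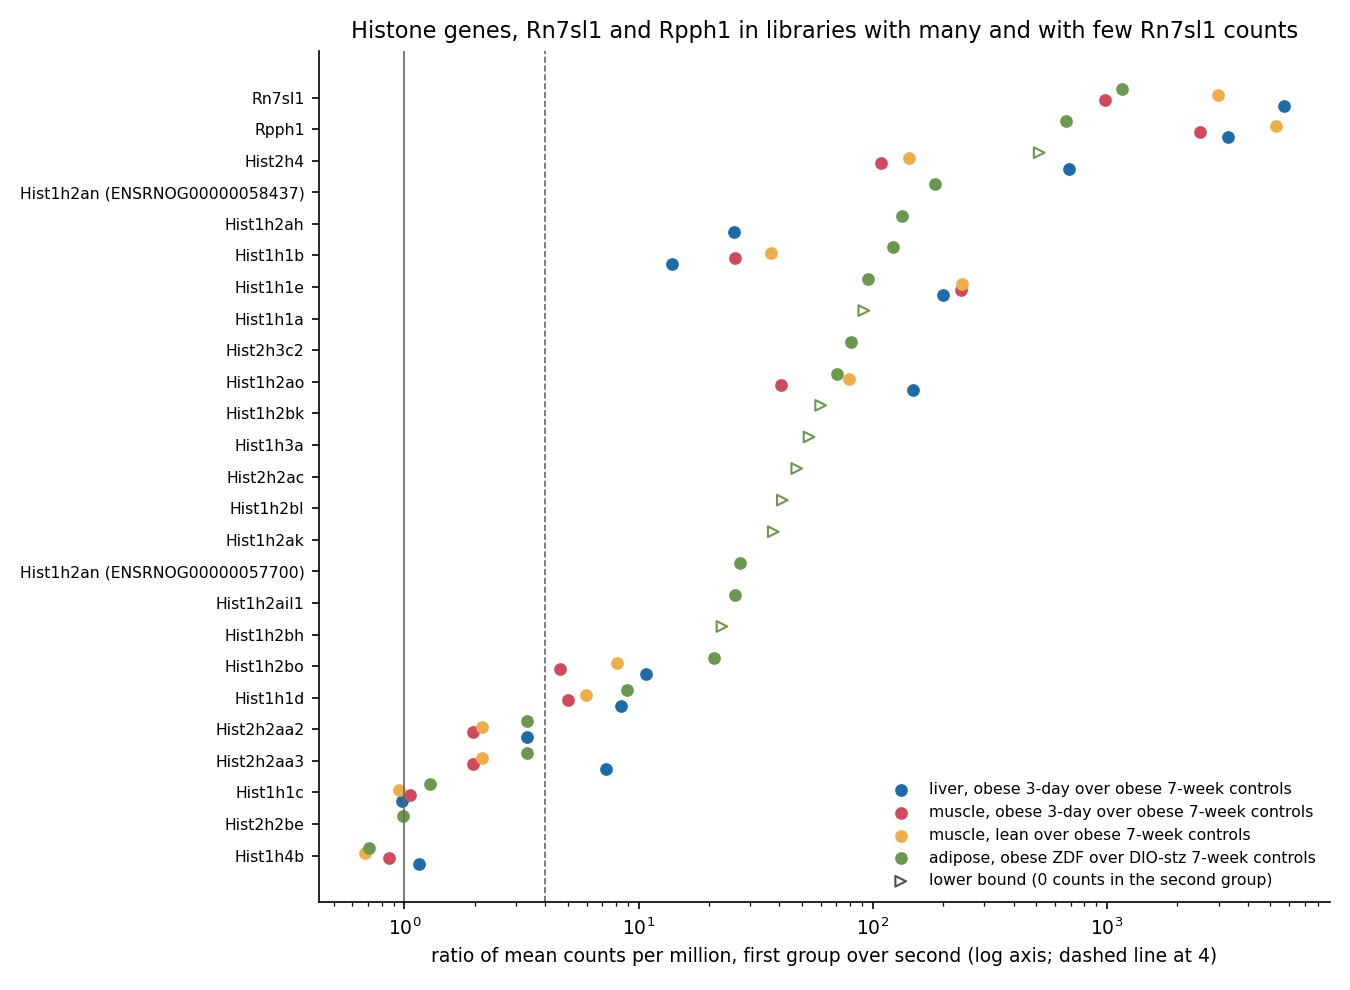
Ratio of mean CPM between groups rich and poor in Rn7sl1 (log axis, dashed line at 4), for members with a mean of 1 CPM or more in a contrast, 1 colour a contrast, with triangles for lower bounds. Hist1h1c, Hist2h2be and Hist1h4b lie near 1 in each contrast drawn for them, and Hist2h4, Hist1h1e and Hist1h2ao lie at 40.6 and above.

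The summed level of the 31 histone genes carried the same split. Its median was 167 CPM in Rn7sl1-rich livers (118 to 213) and 60.2 CPM in the others (44.0 to 107), without overlap. In muscle the medians were 124 CPM (98.7 to 172) and 55.1 CPM (36.6 to 92.1), also without overlap. Rn7sl1-rich adipose had a median of 342 CPM (89.8 to 527) and DIO adipose of 124 CPM (69.2 to 154). The 5 adipose libraries with low Adipoq and high Ckm were the lowest of the rich ones, at 89.8 to 148 CPM, while the other 35 stood at 182 to 527 CPM. Pancreas, rich throughout, had a median of only 80.5 CPM (33.3 to 185).

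Within a tissue, a handful of genes made most of the sum. In obese 7-week controls (n = 5 a tissue), Hist1h4b and Hist1h1c together led in liver, with means ± SD of 47.1 ± 8.18 and 30.1 ± 12.8 CPM, or 57.1% and 36.5% of all histone counts. Hist1h1c alone made 75.7% in muscle (43.3 ± 16.0 CPM), where Hist1h4b stood at 4.54 ± 1.36 CPM. Kidney held 41.6 ± 7.76 CPM of Hist1h4b, 39.9 ± 26.3 CPM of Hist1h1c and 10.9 ± 8.60 CPM of each copy of the H2A pair. Next came Hist2h2be, an H2B gene, in kidney (0.774 CPM), and Hist1h1d, an H1 gene, stood at 0.547 CPM in liver and 1.25 CPM in muscle. Intestine was led by Hist1h4b (38.9 ± 10.7 CPM) and Hist1h1c (27.5 ± 12.6 CPM). The list changed in pancreas and in 3-day adipose, which were rich in Rn7sl1 and labelled with the total RNA kit. In pancreas Hist1h1e (11.2 ± 4.91 CPM) stood next to Hist1h1c (13.1 ± 5.71 CPM), ahead of the pair (6.36 CPM each) and Hist1h4b (4.38 CPM). In adipose of 3-day controls (n = 4), Hist1h1c (101 ± 30.1 CPM) was followed by Hist2h4 (37.2 ± 10.4), Hist1h1e (33.9 ± 11.7) and the pair (32.1 ± 14.6 each).

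Hist3h2ba, an H2B gene of cluster 3, stood apart by tissue. Over all libraries it ranged from 13.1 to 65.4 CPM in blood (median 21.7 CPM) and from 11.8 to 30.0 CPM in brain (median 17.8 CPM). It reached at most 2.49 CPM in intestine, 1.37 CPM in adipose, 1.06 CPM in kidney, 0.484 CPM in muscle, 0.399 CPM in liver and 0.295 CPM in pancreas. No blood or brain library overlapped any library of the other 6 tissues. In obese controls it made 39.2% of the histone counts of blood, beside Hist1h4b at 49.8%, and 35.2% in brain, beside Hist1h1c at 42.7%. Hist1h1c followed in blood at 3.20 ± 0.751 CPM, then the H2B genes Hist1h2bo at 1.14 ± 0.294 CPM and Hist1h2bd at 0.316 ± 0.276 CPM.

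The histone sum was set beside genes of dividing cells in the same obese controls. Intestine, whose crypt cells divide throughout life, had the highest sum of 24 dividing cell genes, at 731 to 1374 CPM with a median of 1055 CPM. Its histone sum, at 63.0 to 120 CPM, overlapped those of liver (61.2 to 107 CPM), kidney (84.0 to 177 CPM) and brain (50.6 to 78.7 CPM). Pancreas had the lowest dividing sum (4.14 to 13.2 CPM) and a histone sum of 33.3 to 81.4 CPM. These sums are shares of library totals, and ranks between tissues depend on that scaling. In the fits below, library totals and TMM scaling differed in the median gene by -2.01 on the log2 scale for pancreas. The difference was -3.34 for blood and 0.59 for intestine. So the tissue that led in the dividing cell genes did not lead in the histone sum of these libraries. In the intestine controls, which had little Rn7sl1, Hist1h4b and Hist1h1c together made 79.4% of that sum. Both genes had similar means in the contrasts of library kind. Whether poly(A) selection lowered the other histone mRNAs of intestine was not tested.

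**Figure D3:**
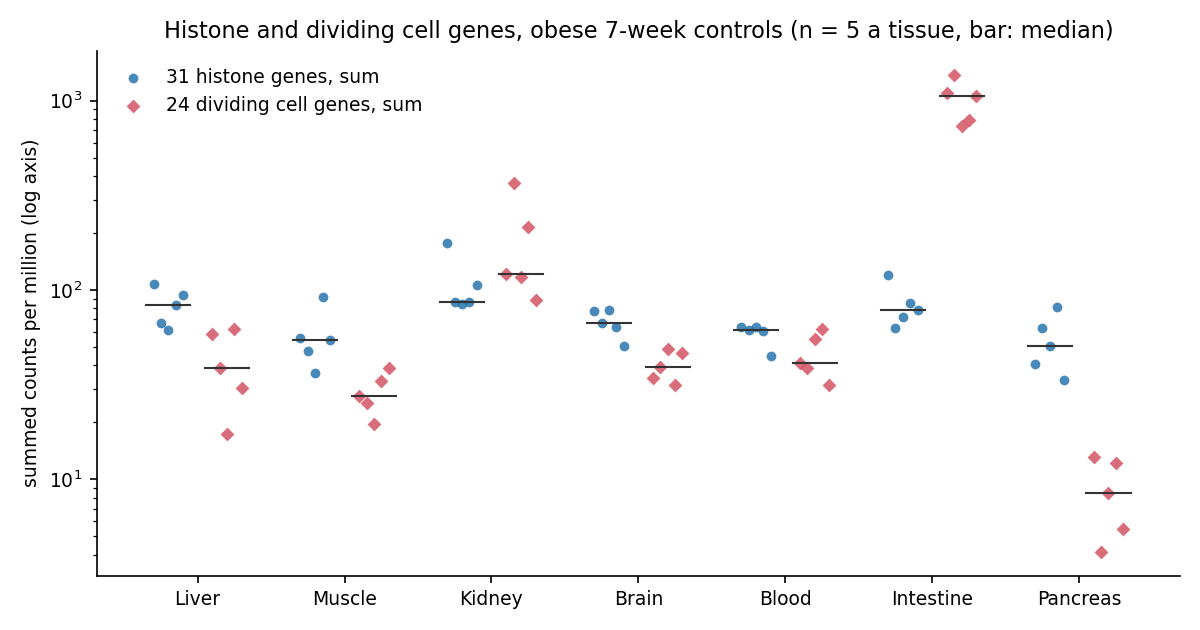
Summed CPM (log axis) of the 31 histone genes (circles) and of 24 dividing cell genes (diamonds) in each obese 7-week control library, with the median as a bar (n = 5 a tissue). The dividing cell genes reach a median of 1055 CPM in intestine, while the histone medians lie between 50.9 and 86.7 CPM in all 7 tissues. Sums are shares of library totals, with no further scaling between tissues.

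Intestine, blood and pancreas were each tested against the mean of liver, muscle, kidney and brain in obese controls with edgeR's quasi-likelihood test and Benjamini-Hochberg adjustment, and 13 of the 33 members passed the filter on low counts. The rest were too scarce to test in these libraries. In intestine 6 members passed the threshold of 0.05, 3 higher and 3 lower, where 64.9% of 16514 genes passed. Hist1h4b stood at 53.5, 31.9, 27.3, 46.2 and 35.8 CPM against 24.9 CPM in the mean of the other tissues, a log2 fold change of 0.72 (SE 0.20, adjusted p = 0.00211). Hist2h2be stood at 1.21 to 2.08 CPM against 0.597 CPM (log2 fold change 1.56, SE 0.32, adjusted p = 8.70e-05). Hist3h2ba, at 0.875 to 1.99 CPM, was called higher by 0.96 (SE 0.29, adjusted p = 0.00453) although the mean of the 4 tissues was 6.14 CPM, because the fit averages tissues on the log scale and brain alone was high.

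The other calls in intestine were lower. Hist1h1c stood at 48.5, 14.7, 25.5, 23.2 and 25.4 CPM, a log2 fold change of -0.97 (SE 0.34, adjusted p = 0.0134). That call was lost when library totals replaced the TMM scaling (log2 fold change -0.35, adjusted p = 0.312). Rn7sl1 was lower by -2.92 (SE 0.52, adjusted p = 1.02e-05), at 1.35 to 2.52 CPM against 10.2 CPM. Rpph1 was lower by -1.64 (SE 0.43, adjusted p = 0.00108). The TMM scaling and the library totals differed by 0.59 on the log2 scale in the median gene of this comparison.

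Around these members the genes of cell division rose together in intestine. All 24 dividing cell genes tested were higher, with a median log2 fold change of 4.21 against -0.05 for all genes, such as the proliferation antigen Mki67 at 206 against 4.41 CPM and cyclin A2 (Ccna2) at 40.0 against 1.15 CPM. DNA replication genes were higher in 27 of 27, such as Rrm2, which makes deoxynucleotides, at 19.3 against 1.26 CPM. Of 11 replacement histone genes, whose mRNAs are polyadenylated, 9 were higher and 0 lower, led by the centromeric H3 gene Cenpa (15.3 against 0.768 CPM). Histone mRNA processing genes were divided, with 6 higher and 5 lower of 19, and Slbp, the stem-loop binding protein, stood at 54.1 against 15.8 CPM. RNase P and MRP protein genes were lower in 4 of 11 and higher in 0, and signal recognition particle genes higher in 2 and lower in 3 of 6.

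Blood gave 8 members higher and 0 lower, against 64.3% of genes called, but this direction rested on the scaling. Hbb alone stood at 116154 to 207537 CPM in blood, and with library totals 3 members were higher and 6 lower. The median of all genes was -0.66 under TMM and -4.00 under library totals, a shift of -3.34. Hist3h2ba was higher under both, at 18.3 to 28.9 CPM against 6.14 CPM (log2 fold change 9.22 and 5.45), as were Hist1h2bo (5.83 and 2.06) and Hist1h4b (4.59 and 0.91). Rpph1 turned from 2.10 to -1.44. Hist1h1c stood at 3.20 CPM against 35.6 CPM, a fitted change of 0.28 under TMM that did not pass and of -3.45 under library totals. Under TMM 14 of 24 dividing cell genes were higher in blood and 0 lower, such as Ube2c at 15.1 against 1.04 CPM, and 5 of 6 signal recognition particle genes were lower.

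Pancreas had 10 members higher and 0 lower under TMM, and 9 higher of 12 called under library totals, against 58.1% of genes called under TMM. Hist1h1e, Hist2h4 and Hist1h2ao were scarce in the other tissues and passed the filter on low counts only through pancreas. These genes could not come out lower, so the direction of the counts is a description and not a test. The scalings differed by -2.01 in the median gene. Rn7sl1 stood at 67449 to 98844 CPM against 10.2 CPM (log2 fold change 15.31, SE 0.46, adjusted p = 1.04e-24). Rpph1 stood at 709 to 1037 CPM against 1.01 CPM (12.09, SE 0.30). Hist1h1e stood at 11.2 against 0.190 CPM (8.06), Hist2h4 at 2.98 against 0.0962 CPM (7.38), Hist1h2ao at 3.02 against 0.0777 CPM (7.37) and Hist1h1d at 2.70 against 0.694 CPM (4.10). Hist1h1c, Hist1h4b and Hist3h2ba did not pass under TMM (adjusted p = 0.0935, 0.344 and 0.912), and under library totals they were the 3 lower (-1.42, -1.82 and -1.92). Kit and tissue cannot be told apart in this comparison. Dividing cell genes were mixed in pancreas, with 2 higher and 3 lower of 24.

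To see which members differed after pFUS, 28 comparisons of pFUS with sham control were fitted. Members passed the threshold in 2 of them and in none of the other 26 (edgeR), of which DESeq2 called 0 members in 23. The calls were Rpph1 and Hist2h4 in muscle after 3 days of x10, and the H2A pair in adipose of DIO-stz rats. Comparisons with x1 and x10 share their control libraries.

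In 3-day muscle, Rpph1 stood at 806, 1025, 891 and 884 CPM in the controls and at 2240, 1710, 3097 and 1585 CPM after x10. Every x10 library was above every control, and the log2 fold change was 1.23 (SE 0.22, adjusted p = 0.0222 by edgeR's quasi-likelihood test with Benjamini-Hochberg adjustment). Hist2h4 stood at 8.03, 7.98, 10.3 and 7.46 CPM against 20.6, 13.0, 21.3 and 11.9 CPM, again without overlap (0.96, SE 0.20, adjusted p = 0.0348). Rn7sl1 moved alike without passing, at 6007, 8624, 5462 and 7496 CPM against 15621, 9599, 20385 and 11550 CPM (1.01, SE 0.30, adjusted p = 0.101, and 0.0236 by DESeq2). These were 2 of 14 members tested, where 0.51% of 12739 genes were called.

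Neither call was stable to single libraries. Leaving out 1 library gave an adjusted p of 0.0237 to 0.0936 for Rpph1, under the threshold in 4 of 8 refits, and of 0.0281 to 0.142 for Hist2h4, under it in 2 of 8. No member passed without x10 library 37 or 39, or without control 43 or 44, and 1 passed without control 41 or 42. The other RNAs without poly(A), 4048 genes, took 1.28% to 1.80% of the counts in the controls and 2.61% to 4.26% after x10, so they rose in share with Rpph1. When they were kept out of the scaling, both members were still called. Hist2h4 was lost, with Rpph1 kept, under library totals (adjusted p = 0.0632) and in a fit of only the groups compared (adjusted p = 0.0531). Markers of erythroid cells also stood apart, at 161 to 190 CPM against 191 to 314 CPM for the 4 measured of 7, as did the x1 libraries in part (175 to 316 CPM). Their part in the result was not tested. None of the dividing cell genes passed (10 tested), nor any RNase P protein gene (10 tested) or signal recognition particle gene (6 tested).

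After x1, muscle had no member past the threshold among 14 tested, with 4 at an unadjusted p under 0.05 and 0.0157% of genes called. Rpph1 stood at 1714, 1111, 1215 and 1280 CPM (log2 fold change 0.55, adjusted p = 0.653) and Hist2h4 at 14.6, 11.3, 11.7 and 14.1 CPM (0.61, adjusted p = 0.574), both above the controls in all 4 libraries. The 4-week groups have no control of their own. Rpph1 there stood at 705 to 1537 CPM after AM only x10, at 1071 to 1279 CPM after AM & PM x1 and at 1496 to 2632 CPM after AM & PM x10.

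**Figure D4:**
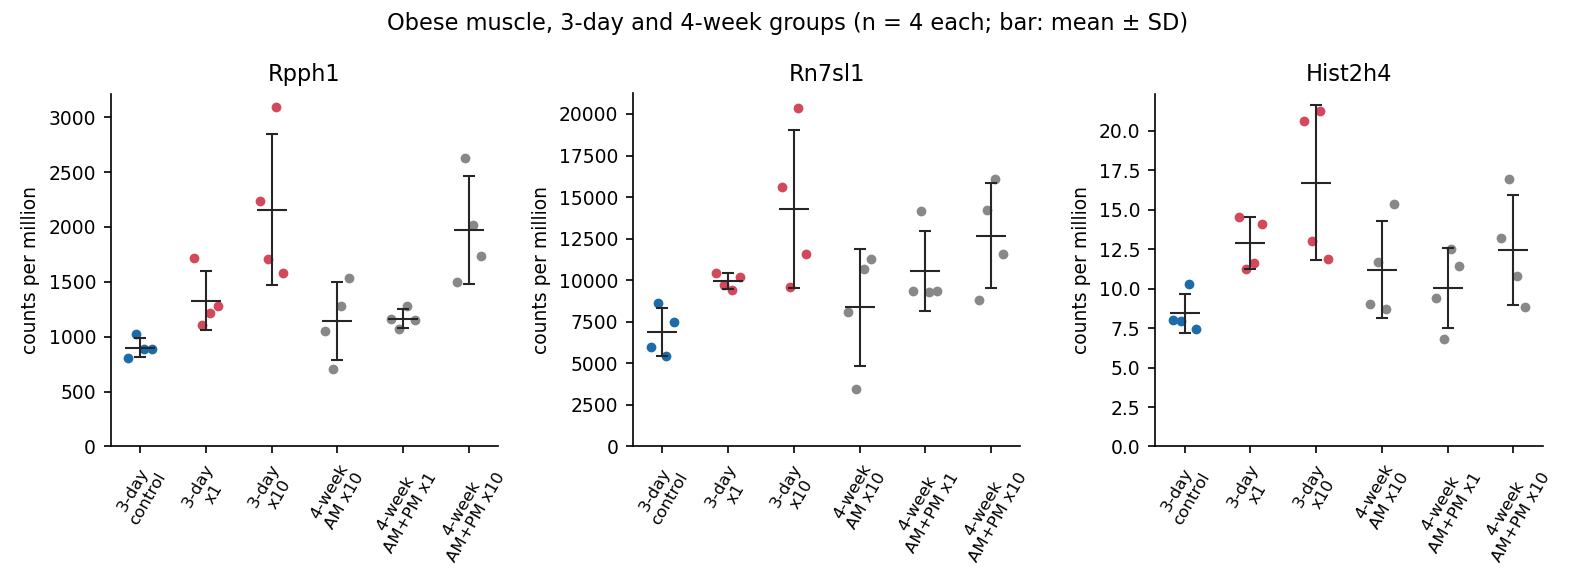
CPM of Rpph1, Rn7sl1 and Hist2h4 in muscle of the 6 short-term groups of obese ZDF rats, 1 point a library, with mean ± SD (n = 4). The x10 libraries at 3 days stand above the 3-day controls for all 3 genes (Rpph1 1585 to 3097 against 806 to 1025 CPM), and the groups at 4 weeks lie between 705 and 2632 CPM for Rpph1.

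Liver and adipose of the short-term groups gave no call. In liver, x1 had Rn7sl1 at 22903 to 30026 CPM against 17484 to 19278 CPM in the controls, without overlap (log2 fold change 0.54, SE 0.17, adjusted p = 0.121, edgeR). There 0 of 17 members passed after x1 and 0 of 17 after x10 (4 and 2 at an unadjusted p under 0.05), where 1.32% and 2.04% of genes were called. In adipose 0 of 26 passed after x1 and 0 of 26 after x10 (0 and 5 at an unadjusted p under 0.05), where 0.0216% and 0.0503% of genes were called.

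In adipose of DIO-stz rats the H2A pair was higher after pFUS. Each copy stood at 4.27, 4.96, 7.01 and 7.00 CPM in the 4 controls and at 35.5, 34.0 and 23.6 CPM in the 3 pFUS libraries. No pFUS library came near a control, and the log2 fold change was 2.17 (SE 0.22, adjusted p = 0.0252 for both Hist2h2aa2 and Hist2h2aa3, edgeR with sex in the model). These were the only calls among 9 members tested, with the copies counted apart, where 0.0505% of 13867 genes were called. All 3 pFUS libraries were male. Between males alone the sum of the pair stood at 14.0 and 14.0 CPM against 70.9, 68.0 and 47.2 CPM (2.16, adjusted p = 0.0337). The female controls had 8.54 and 9.92 CPM, and the single diet resistant library, a treated female, had 52.6 CPM.

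The call rested on few libraries, since leaving out control 5 or 6, or pFUS library 7 or 8, ended it (adjusted p = 0.0203 to 0.208 over 7 refits). Erythroid markers stood at 320 to 1261 CPM in the controls and 1220 to 1827 CPM after pFUS for the 4 measured of 7, with overlap, and 3 liver markers, Alb among them, at 6.51 to 73.6 against 54.4 to 238 CPM. Their part in the result was not tested. The sum of dividing cell genes overlapped, at 39.4 to 93.4 CPM in the controls and 56.5 to 161 CPM after pFUS. None of the 24 dividing cell genes tested passed, nor any of 11 replacement histone genes.

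In the other DIO-stz tissues no member passed. Kidney came closest for Rpph1, at 14.1, 7.76, 18.2 and 13.3 CPM in the controls against 5.81, 3.66, 3.73, 1.77 and 5.89 CPM after pFUS, without overlap. Its log2 fold change of -1.96 (SE 0.42) had an adjusted p of 0.189 by edgeR and of 0.00429 by DESeq2. Rn7sl1 in the same kidneys stood at 8.24 to 17.5 CPM in the controls against 2.28 to 12.9 CPM after pFUS, with overlap. Both RNAs lay far below their levels in Rn7sl1-rich libraries, and the part of poly(A) selection in the difference was not tested. In blood the histone sum stood at 139 to 166 CPM in the controls against 69.4 to 96.9 CPM after pFUS. Markers of other cells differed too, at low levels. The 5 neutrophil precursor genes summed to 1.36 to 11.4 CPM in the controls against 0.745 to 2.20 CPM, and the 3 intestinal crypt genes to 0.818 to 19.7 against 0.265 to 1.26 CPM, both with some overlap. The 4 pancreas genes, at 1.51 to 4.64 against 0.373 to 1.49 CPM, did not overlap. The 4 measured of 7 erythroid genes overlapped (117947 to 166075 against 122201 to 146280 CPM). Their part in the difference was not tested. Hist3h2ba in blood stood at 42.1 to 65.4 against 19.9 to 32.8 CPM, and Hist1h4b at 80.8, 77.4, 77.7 and 46.8 CPM against 35.7 to 51.3 CPM. No member of blood passed after TMM, whose scaling differed from library totals by -0.74 in the median gene, and 0 passed under library totals or by DESeq2.

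Pancreas of DIO-stz rats held the highest Rn7sl1 of the series. The controls stood at 158044, 129353, 110936 and 395247 CPM and the pFUS libraries at 77037 to 92278 CPM (log2 fold change -2.99, adjusted p = 0.379, edgeR). Without control 5 the adjusted p was 0.0250, and over all alternatives it ran from 0.0250 to 0.838. In control 6 the other RNAs without poly(A) took 45.0% of the counts, against 8.51% to 10.4% in the pFUS libraries. Members at an unadjusted p under 0.05 numbered 6 of 14 in pancreas, 3 of 7 in muscle, 2 of 8 in kidney, 1 of 9 in blood, 1 of 12 in intestine, 1 of 6 in liver and 0 of 8 in brain. Of all genes, 0.856% were called in pancreas, 0.784% in liver and 0% in the other 5 of these tissues.

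Lean rats at 7 weeks had no member past the threshold in any of 6 tissues. Liver had the largest differences, with Rpph1 at 0.692, 0.952, 0.248, 0.553 and 1.75 CPM in the controls and 13.5, 2.00, 4.47, 1.24 and 1.43 CPM after pFUS (log2 fold change 2.67, SE 0.61, adjusted p = 0.0615, edgeR). Rn7sl1 stood at 1.87 to 4.87 CPM against 31.5, 11.3, 4.07, 6.22 and 2.51 CPM (2.03, adjusted p = 0.0698). Both groups overlapped, and both genes lay far below the Rn7sl1-rich livers. DESeq2 called 2 members here, and edgeR called 4 without control 15. The other RNAs without poly(A) took 0.00108% to 0.00977% of the counts in the controls and 0.00234% to 0.0580% after pFUS. Members at an unadjusted p under 0.05 were 4 of 6 in liver, 8 of 26 in adipose and 0 in muscle, blood, brain and intestine. Of all genes 0.0556% were called in liver, 0.0068% in intestine and 0% in the rest. All 4 lean pFUS libraries of adipose had muscle or kidney genes over the limits set for them (Ckm over 10000 or Umod over 100 CPM), so that comparison could not be run without them.

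Obese rats at 7 weeks had no member past the threshold in any of 8 tissues. In intestine Hist1h1d stood at a mean of 0.818 CPM in the controls and 0.306 CPM after pFUS without overlap (log2 fold change -1.13, adjusted p = 0.109, edgeR), and Hist2h2be at 1.68 and 0.874 CPM, also without overlap (adjusted p = 0.178). With library totals 2 members of intestine passed. Leaving out pFUS library 7, which held the pancreas markers, also left 0 members past the threshold. Its Hist1h1d, at 0.195 CPM, was below the 0.289 to 0.383 CPM of the other 4 pFUS libraries, and its Hist2h2be, at 0.909 CPM, lay among their 0.383 to 1.13 CPM. Members at an unadjusted p under 0.05 were 3 of 10 in intestine, 1 of 7 in blood, 1 of 6 in liver, 1 of 10 in pancreas and 0 in kidney, muscle, brain and adipose. Of all genes 0.0612% were called in intestine, 0.302% in liver, 0.103% in muscle, 0.0973% in kidney, 0.0718% in pancreas and 0% in blood, brain and adipose. In adipose 0 members were called also without the library that held muscle or kidney genes over those limits.

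Obese and lean controls were compared in 6 tissues, and muscle carried the split of library kinds. There 13 of 15 members tested were lower in obese rats and 0 higher, where 51.9% of 12577 genes were called. Members nearly absent from obese muscle, such as Hist1h1e, Hist2h4 and Hist1h2ao, passed the filter on low counts only through the lean libraries. Such members could not come out higher in obese rats, so the direction of this count is a description and not a test. Rpph1 had means of 0.360 and 1892 CPM (log2 fold change -12.29), Rn7sl1 of 7.01 and 21000 CPM (-11.41), Hist1h1e of 0.0884 and 21.3 CPM (-7.73), Hist2h4 of 0.0777 and 11.2 CPM (-7.00) and Hist1h2ao of 0.0835 and 6.61 CPM (-6.04). Hist1h1c (adjusted p = 0.479) and Hist1h4b (adjusted p = 0.0521) did not pass. The H1 genes Hist1h1b (-5.00) and Hist1h1d (-2.51), the H2A genes Hist1h2ah (-6.61) and Hist1h2ail1 (-1.57), and the H2B genes Hist1h2bk (-5.10) and Hist1h2bo (-2.86) were lower as well. The H2A pair stood at 3.24 against 6.94 CPM each (adjusted p = 0.0365) and passed in 3 of 9 refits that left out 1 library. Rn7sl1, Rpph1 and Hist1h1e also parted the 3-day from the 7-week muscle of obese rats, so strain and library kind cannot be told apart. Genes of other classes changed too, with Mki67 at 0.706 against 5.57 CPM among 5 dividing cell genes lower of 11 tested. Of 10 RNase P and MRP protein genes 5 were higher and 0 lower, and of 6 signal recognition particle genes 4 were higher, opposite in direction to Rpph1 and Rn7sl1.

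Liver gave no call between obese and lean controls, with 3 of 6 members at an unadjusted p under 0.05 and 13% of genes called. Hist1h1c stood at 41.5, 28.2, 10.4, 28.9 and 41.5 CPM in obese and at 6.67, 8.40, 16.3, 5.95 and 24.3 CPM in lean livers, with overlap (log2 fold change 1.20, SE 0.41, adjusted p = 0.0583, edgeR, and 1 member called by DESeq2). Dividing cell genes were higher in obese liver in 14 of 20 tested and lower in 0, with a median log2 fold change of 1.78. Among them were Nusap1, a spindle gene, at 1.24 against 0.155 CPM (2.94, adjusted p = 0.00222) and Birc5 (survivin) at 1.45 against 0.250 CPM (2.52, adjusted p = 0.000862). DNA replication genes were higher in 1 and lower in 4 of 25, and of 11 RNase P and MRP protein genes 4 were lower, such as Rpp25 at 0.666 against 1.99 CPM. In blood, brain, intestine and adipose 0 members passed (0, 1, 0 and 0 at an unadjusted p under 0.05, and 0 by DESeq2), where 2.78%, 0.325%, 0.0136% and 0.00728% of genes were called. Among the 4 lean adipose controls, libraries 11 and 12 had muscle or kidney genes over the limits given above. This limits what the adipose comparison says about fat.

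A comparison of male with female DIO-stz rats, added after the values were seen, gave calls in kidney only among 8 tissues. Hist1h1c stood at 76.5, 56.3 and 90.2 CPM in the 3 female kidneys and at 16.4, 28.0, 24.9, 22.3, 31.8 and 25.4 CPM in the 6 male ones. The lowest female was above the highest male (log2 fold change -1.58, male minus female, SE 0.22, adjusted p = 0.0171, edgeR). The H2A pair summed to 72.8 to 140 CPM in females and 19.1 to 29.9 CPM in males (-2.16, SE 0.26, adjusted p = 0.00658 for each copy). Hist1h4b overlapped, at 15.8 to 28.0 CPM in females and 7.12 to 41.4 CPM in males (adjusted p = 0.954), as did Rn7sl1 and Rpph1. These were 3 of 8 members tested, with the copies of the pair counted apart, where 0.62% of 13720 genes were called.

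The female diet resistant rats, which the test did not use, had Hist1h1c at 62.6 and 79.4 CPM and the pair at 58.6 and 55.1 CPM in kidney. Obese ZDF males had Hist1h1c at 20.0 to 86.9 CPM and the pair at 9.05 to 51.3 CPM, with obese control 1 the highest of both. Without DIO-stz control 3 or pFUS library 11, both female, no member passed. Of 23 dividing cell genes tested, 1 was higher in males (Melk, 12.7 against 0.726 CPM) and 0 lower. In the other 7 tissues 0 members passed, at 3 of 9 with an unadjusted p under 0.05 in adipose, 2 of 12 in intestine, 1 of 9 in blood and 0 in the rest, and 0 by DESeq2. Of all genes 0.642% were called in adipose, 2.5% in liver, 0.0585% in muscle, 0.0465% in pancreas, 0.0412% in brain, 0.0397% in blood and 0.0213% in intestine.

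**Figure D5:**
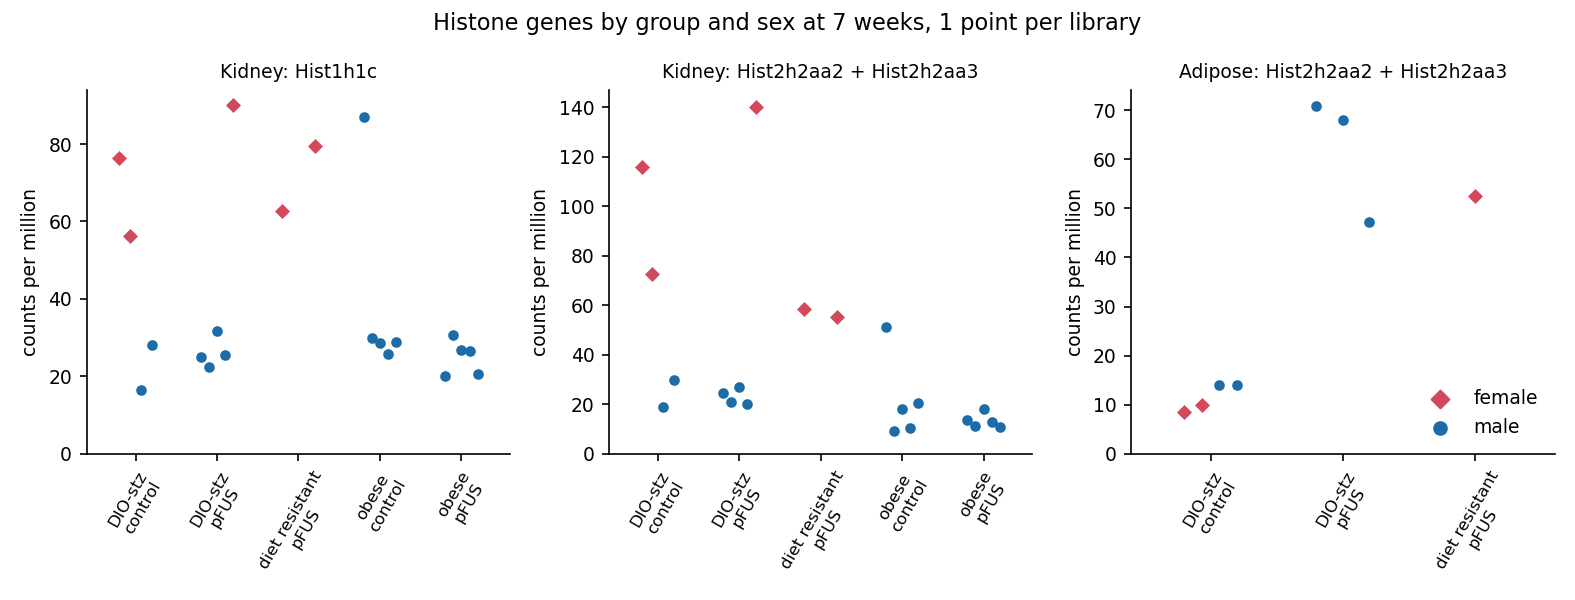
CPM of Hist1h1c and of the summed H2A pair by group at 7 weeks in kidney, and of the pair in adipose of DIO rats, 1 point a library, females as diamonds and males as circles. Female kidneys stand at 56.3 CPM and above for Hist1h1c, where 1 obese control male reaches 86.9 CPM, and the treated DIO-stz adipose libraries stand at 47.2 to 70.9 CPM against 8.54 to 14.0 CPM in controls.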

How the data were processed

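The deposited table held expected counts per gene, which per the submitters' processing notes came from STAR 2.5.3a and RSEM on build Rnor_6.0. Which release of the gene annotation they used was not given in the sources used here. All values were whole numbers, and they total 2380545 to 43088790 a library, so members with few counts are imprecise.

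Members and lists were chosen with earlier results of these data known. Named in the text are Rn7sl1, Rpph1, the 5 highest histone genes of each tissue, up to 6 members past the threshold in each comparison with a mean of 1 CPM or more in a group, and up to 4 genes of each other list. Other members named were chosen after their values were seen. CPM was computed per library (Python 3.11.15, numpy 2.4.6, pandas 2.3.3, matplotlib 3.10.9). Groups were compared with edgeR 4.0.16 (R 4.3.3, limma 3.58.1, data.table version 1.17.8), with its quasi-likelihood test, TMM scaling, its filter at a minimum count of 10, and Benjamini-Hochberg adjustment over all genes tested at 0.05. All groups of a tissue and cohort shared 1 fit, with sex as a term in DIO rats. The scripts were tested on simulated data. DESeq2 1.42.0, other scalings, other filters, fewer groups and each library left out were alternatives. The split at 1000 CPM of Rn7sl1, the contrasts of library kind, the comparison of sexes, the scaling by library totals and the promoter windows and motifs were added after the data were seen. For 32 of 33 members a RefSeq entry matched, in build GRCr8, which is not the build of the counts, so no coordinate was joined to a count. Groups are as labelled, and 0 of 477 replicate pairs were identical. A lower-case symbol, hist1h2ail2 (611 counts in all), was left out by the rule.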

Additional observations from a re-analysis of the deposited data

Results flagged for a closer look

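Among groups of 4 or more libraries, 180 sets of values of Rn7sl1, Rpph1 and the histone sum were searched for a library far from the others of its group. It was found in 22 sets, 12.2%, where about 1 in 20 was taken as the rate by chance. Most flagged libraries were high rather than low, and some were flagged for more than 1 measure. The excess over 1 in 20 is therefore not a test. All values here are CPM.

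For Rn7sl1, DIO-stz control 6 stood apart in pancreas, at 395247 against 110936 to 158044 in the others, and in liver DIO-stz control 6 had 15.1 against 3.98 to 5.14. In brain, lean control 15 had 39.1 (others 9.94 to 13.7) and obese pFUS library 10 had 46.2 (others 8.03 to 12.2). The 3-day control 41 of liver was low, at 17484 (others 19085 to 19278), and the 4-week AM & PM x1 library 22 of muscle was high, at 14185 (others 9313 to 9365).

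For Rpph1, the same obese pFUS library 10 of brain stood at 7.44 (others 0.652 to 1.09) and the same control 6 of DIO-stz pancreas at 12178 (others 3069 to 4271). Lean pFUS library 16 was high in 3 tissues, at 4847 in adipose (others 978 to 1469), 13.5 in liver (others 1.24 to 4.47) and 2645 in muscle (others 1451 to 1602). All adipose libraries of its group had muscle or kidney genes over the limits given above, and Rn7sl1-rich adipose had a median of 3703. The 3-day control 44 of liver had 2273 (others 1540 to 1660), and DIO-stz pFUS library 10 of brain 5.14 (others 2.55 to 3.17). In blood, obese control 5 had 0.651 (others 0.132 to 0.279) and obese pFUS library 6 had 1.08 (others 0.0898 to 0.308). Obese control 4 of muscle had 0.809 (others 0.194 to 0.313).

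For the histone sum, DIO-stz pFUS library 11 of kidney, the only female of its group, had 254 against 73.7 to 104 in the others, and obese control 1 of kidney had 177 (others 84.0 to 106). DIO-stz control 3 of pancreas had 185 (others 101 to 108) and DIO-stz pFUS library 9 of liver 82.4 (others 51.9 to 59.5). Lean pFUS library 16 of adipose had 182 (others 89.8 to 94.7). Those others lay within the 89.8 to 148 of the 5 adipose libraries with low Adipoq and high Ckm. The value of library 16 was the lowest of the other 35 Rn7sl1-rich adipose libraries. The part of muscle RNA in this difference was not tested. Obese control 5 of blood was low, at 44.6 (others 60.6 to 63.5).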

How the results depend on the processing

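Of the log2 fold changes of named members under other settings, 687 kept their side of the threshold, 5 passed it, 6 no longer did and 1 reversed. A change of sign was counted only where at least 1 of the fits passed, so the 687 may hold others. A missing adjusted p counted as kept where the main fit had not passed. The reversed one was Rpph1 in blood against 4 tissues, which turned to -1.44 (adjusted p = 0.000836, edgeR) with library totals, where edgeR's TMM gave 2.10. Asking for a mean of 5 CPM left 7 of 18 histone genes higher in adipose between library kinds, 3 of 7 in liver and 3 of 6 in 3-day muscle. DESeq2 gave 18 members past the threshold in blood, 10 in intestine, 21 in pancreas, 21 in obese against lean muscle, 1 in obese against lean liver, 1 in DIO-stz kidney, 1 in DIO-stz pancreas and 2 in lean liver after pFUS. With no filter on low counts, which tests more members, these were 18 in blood, 14 in intestine, 26 in pancreas and 24 in obese against lean muscle. Only the groups compared gave 5 in blood, 8 in obese against lean muscle and 1 in 3-day x10 muscle. Library totals gave 1 in 3-day x10 muscle, 1 in obese against lean liver, 1 in lean liver after pFUS and 2 in obese intestine after pFUS. The cause of these differences was otherwise not tested.

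Leaving out 1 library gave 0 to 2 members past the threshold in 3-day x10 muscle and 0 to 2 in DIO-stz adipose. It gave 0 to 3 in the kidney between sexes, 0 to 4 in lean liver after pFUS (4 without control 15, 2 without pFUS library 20, 1 without pFUS library 19) and 0 to 1 in DIO-stz pancreas (1 without control 5). Between obese and lean controls it gave 0 to 1 in blood (1 without lean control 12) and 0 to 1 in liver (1 without obese control 3 or lean control 15).

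With the replicate block, 8 members passed in blood, 7 in intestine and 10 in pancreas against the other tissues, where 8, 6 and 10 passed without it. Libraries with the same number correlated at 0.034 in the mean and at -0.348 at the lowest of 105 pairs, and 19 of 35 correlated best with their own number, a hint from the data that some numbers are shared. The labels do not say that a number marks 1 rat, and not every pair exceeded 0.1, so the block is an alternative only. For the other comparisons no paired analysis was possible because the groups share no replicate numbers. Members with few counts limit what can be seen: a gene at 0 in a group may lie anywhere under 3 counts. For Hist2h2aa2 and Hist2h2aa3 the equal counts leave the level of each copy unknown.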

Other observations

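The 4-week groups of obese ZDF rats had no sham control, and their values are given without comparison. In liver Rn7sl1 stood at 16968 to 32739 CPM after AM only x10, at 24363 to 32575 CPM after AM & PM x1 and at 29492 to 35170 CPM after AM & PM x10. The histone sums of liver were 154 to 202, 126 to 196 and 167 to 196 CPM in the same order. In muscle Rn7sl1 stood at 3460 to 11252, 9313 to 14185 and 8828 to 16095 CPM, and the histone sums at 109 to 166, 119 to 143 and 119 to 143 CPM. In adipose the histone sums were 303 to 470, 247 to 466 and 340 to 490 CPM.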
